A study of Arabidopsis thaliana with 32 samples.

Results

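The comparison described here sets 3 RNA-seq libraries labelled fip37 LEC1:FIP37 against 3 wild-type libraries, all from mock-treated Arabidopsis thaliana seedlings 15 days old. All genes of the deposited expression table with a mean of at least 1 RPKM (reads per kilobase, scaled to the size of the library) over the 12 RNA-seq libraries were taken, which gave 18072 of 34262 genes. The gene just inside that limit had a mean of 1.001 RPKM and the gene just outside it 0.9997 RPKM. The control group is labelled wild type, with no further genotype. The genotype of the other group is given as fip37 with LEC1:FIP37, that is, a fip37 mutant with FIP37 joined to LEC1, a gene whose promoter is active in embryos. The labels do not give the mutant allele or the number of lines. Both groups were kept for 3 h with mock solution, and the 6 remaining RNA-seq libraries were the same genotypes after 3 h with 50 µM NAA, a synthetic auxin. The series holds 32 libraries in all, of which 20 are m6A immunoprecipitates and their inputs.

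N6-methyladenosine, or m6A, is the most common internal modification of messenger RNA, and it is written by a complex of methyltransferases and accessory proteins. FIP37 is a plant subunit of that complex, the counterpart of WTAP in animals. Arabidopsis embryos without it arrest, and so its role after germination has been studied in plants in which an embryo promoter supplies FIP37 early and not later. In such seedlings the shoot meristem is known to be enlarged, with more STM and WUS transcript. The comparison asks which steady-state transcripts differ in these seedlings with no auxin added.

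The label was checked first on the gene it names, and FIP37 went up where the label names a mutant. In RPKM, FIP37 (AT3G54170) had 11.3, 12.4 and 11.3 in the 3 wild-type libraries and 57.9, 87.3 and 91.8 in the 3 others (log2 fold change 2.64, SE 0.29, adjusted p = 3.83e-05). The lowest labelled library was thus well above the highest wild-type one. A gene-wise RPKM pools reads from a transgene, a mutant allele and the intact gene, so this value goes against a plain reading of the label as a loss of FIP37 and cannot decide it. Every direction given here is therefore between library labels, "the labelled libraries" being those labelled fip37 LEC1:FIP37, and "rose" and "fell" compare them with wild type.

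The wild-type libraries resembled each other more than the labelled ones did. In wild type 23 to 65 tested genes of a library differed at least 2-fold from the average of its replicates, against 189 to 314 in the labelled libraries. Relative depth, read from the whole-read steps of low RPKM values, was 86.1% to 128% that of wild-type library 1. The 10 highest genes took 7.45% to 7.83% of all RPKM in wild type and 8.72% to 10.7% in the labelled libraries. The labels call the libraries replicates without naming separate cultures, so p-values measure a spread between libraries that may be technical. That spread was estimated from all 12 RNA-seq libraries, those with NAA included. All of these are whole seedlings, in which fewer cells of a type and less RNA per cell cannot be told apart.

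Transcript levels differed widely between the 2 labels. At an adjusted p under 0.05 (limma, Benjamini-Hochberg over all tested genes) 7004 genes were called, or 38.8%. Of these 2760 (15.3%) were higher and 4244 (23.5%) lower in the labelled libraries. At least 2-fold changes were called for 2039 genes (11.3%), with 1032 higher (5.71%) and 1007 lower (5.57%). Median-ratio scaling gave 1121 and 844 of these, and quantile normalization 1078 and 899. The libraries of both labels did not overlap at 11278 genes (62.4%), 4679 of them higher (25.9%) and 6599 lower (36.5%). The median log2 fold change of all tested genes was -0.07, with 5% of genes under -1.05 and 5% over 1.1. Scaling the libraries by median ratios moved that median to -0.01 and the split of called genes to 3704 higher and 4042 lower, and quantile normalization gave 3589 and 4217. A fit on the 6 mock libraries alone, without the spread of the NAA libraries, called 9483 of 17993 genes, 3912 higher and 5571 lower. The shares of 15.3% and 23.5% from the main fit are the background for every list of genes in the text.

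The 12 largest rises were led by genes of defence chemistry. NATA1 (AT2G39030), which encodes an acetyltransferase that acts on ornithine, stood at 1.39, 1.47 and 2.00 RPKM in wild type and at 84.1, 490.4 and 345 in the labelled libraries (log2 fold change 6.55, SE 0.66, adjusted p = 2.28e-05). CYP82C2 (AT4G31970), a cytochrome P450 of tryptophan-derived defence compounds, stood at 0.86, 1.07 and 0.88 and at 36.6, 449 and 69.2 RPKM (log2 fold change 5.78, SE 0.65, adjusted p = 4.63e-05). In both the first labelled library was the lowest of the labelled ones and the second the highest, yet each was far above wild type. Without the first labelled library the log2 fold change was 7.30 for NATA1 and 6.52 for CYP82C2, and without the second it was 4.73 for CYP82C2. SAG13 (AT2G29350), a marker of senescence and cell death, went from 3.28, 2.86 and 2.36 to 78.8, 262 and 159.5 RPKM (log2 fold change 5.30, SE 0.37, adjusted p = 2.62e-06). SBT3.3 (AT1G32960), a subtilase of immune priming, had the smallest standard error of the 12, at 0.557, 0.295 and 0.362 against 19.5, 20.0 and 23.8 RPKM (log2 fold change 3.97, SE 0.21, adjusted p = 4.44e-07). The other rises were LOX2, described with jasmonate, MBP1 (AT1G52040), a myrosinase-binding protein, PRX52 (AT5G05340), a peroxidase, PXMT1 (AT1G66700), a methyltransferase, and AT1G26390, AT1G76960, AT1G52000 and AT1G26240, with log2 fold changes between 3.99 and 5.71. Of these, MBP1 moved from 5.33 to 5.92 without the second labelled library and to 4.50 without the third, PXMT1 from 4.08 to 4.79 without the first, and AT1G26240 to 3.38 without the second.

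The largest fall was that of XTH15 (AT4G14130), an enzyme that cuts and rejoins xyloglucan in the cell wall. It was among the abundant transcripts of wild type, at 803, 969.8 and 1222 RPKM, and stood at 9.72, 11.5 and 5.74 in the labelled libraries (log2 fold change -6.67, SE 0.57, adjusted p = 7.89e-06). TIP2;3 (AT5G47450), a water and ammonia channel of the vacuole membrane, fell from 16.9, 19.9 and 20.7 to 0.836, 0.337 and 0.098 RPKM (log2 fold change -3.85, SE 0.22, adjusted p = 6.55e-07). IRT1 (AT4G19690), the main iron importer of the root surface, fell from 9.55, 11 and 13.9 to 0.0347, 0.0559 and 0.0366 RPKM (log2 fold change -3.57, SE 0.36, adjusted p = 2.2e-05). For IRT1 the labelled libraries were all near 0, where the scale of log2(RPKM + 1) understates the change. COR27 (AT5G42900), a cold-induced regulator that acts with the clock, stood at 20.4, 63.7 and 23.5 against 1.69, 3.79 and 0.929 RPKM (log2 fold change -3.47, SE 0.42, adjusted p = 8.03e-05), with the second library the highest in both groups. The remaining falls were AT3G16670, AT1G12080, AT2G01422, AT5G02540, AT1G66100, AT4G11320, MLP329 (AT2G01530) and FTM1 (AT1G43800), with log2 fold changes from -5.0 to -3.34. FTM1 lost its call without any one of the 6 mock libraries (adjusted p = 0.0513 to 0.0961), while its log2 fold change stayed between -3.58 and -2.90.

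**Figure D1:**
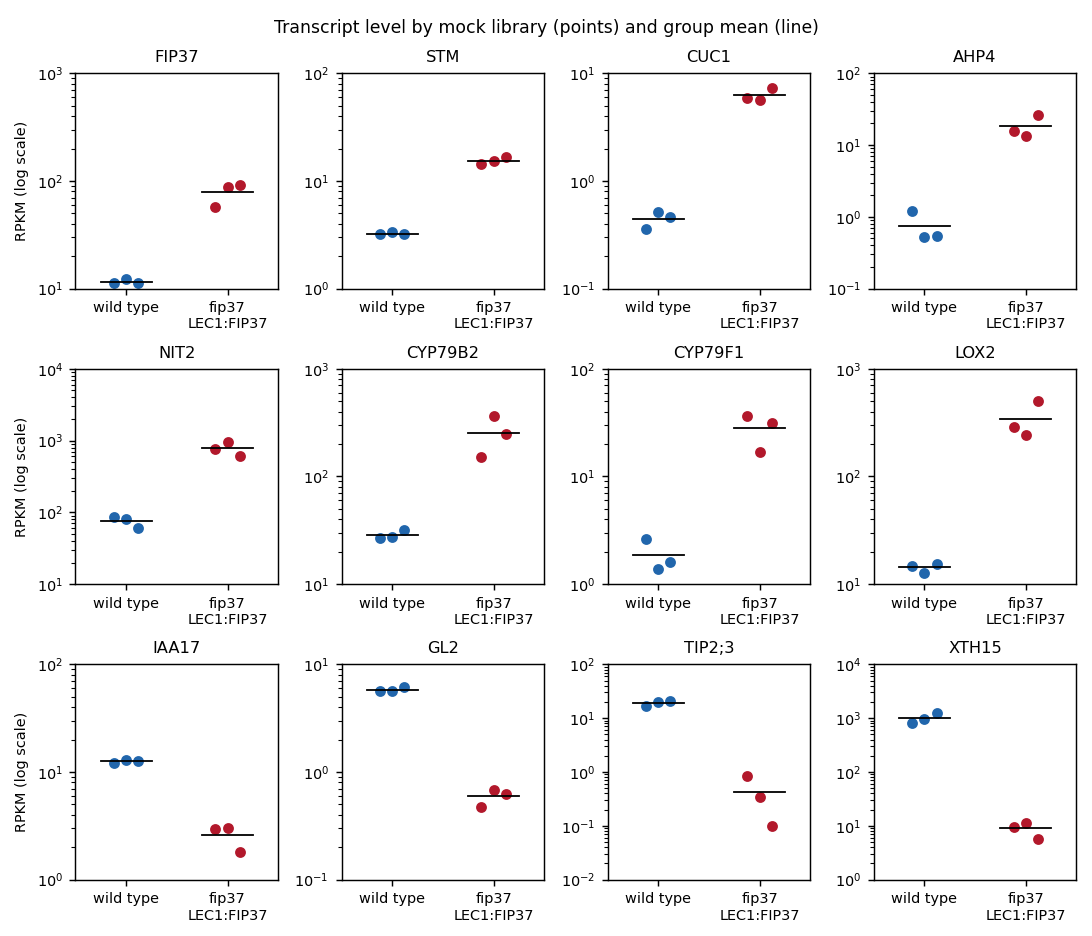
RPKM of 12 genes in each of the 6 mock libraries, on a log axis that differs between panels. Points are libraries, with wild type in blue and fip37 LEC1:FIP37 in red, and lines are group means of 3 libraries. In each panel the 3 labelled libraries lie wholly above wild type (FIP37 to LOX2) or wholly beneath it (IAA17 to XTH15).

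Genes that hold the shoot meristem and its boundaries rose more often than they fell. Of 24 listed genes 19 were tested, 9 rose (47.4%, against 15.3% of all genes) and 2 fell (10.5%, against 23.5%), with a median log2 fold change of 0.40 against -0.07. CUC1 (AT3G15170), a NAC factor that sets the boundary between organs, stood at 0.359, 0.515 and 0.466 RPKM in wild type and at 5.89, 5.59 and 7.32 in the labelled libraries (log2 fold change 2.32, SE 0.14, adjusted p = 1e-06). STM (AT1G62360), the homeodomain factor that keeps meristem cells undifferentiated, went from 3.18, 3.33 and 3.23 to 14.4, 15.2 and 16.7 RPKM (log2 fold change 1.95, SE 0.19, adjusted p = 1.93e-05). Both groups were tight for STM, and the labelled libraries were more than 4-fold above wild type. Its relatives of the KNOX family rose as well. KNAT1 (AT4G08150) stood at 4.38, 4.79 and 4.44 and 9.97, 14.8 and 14.3 RPKM (log2 fold change 1.32, SE 0.17, adjusted p = 0.000117), KNAT6 (AT1G23380) at 4.80, 5.08 and 5.63 and 8.65, 8.73 and 11.4 RPKM (log2 fold change 0.77, SE 0.17, adjusted p = 0.00428). The lowly expressed KNAT2 (AT1G70510) rose by 0.49 (adjusted p = 0.0101), a call lost without the first wild-type library (adjusted p = 0.0524).

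Partners of the KNOX proteins and boundary genes followed. ATH1 (AT4G32980), a BELL homeodomain factor, rose from 1.78, 1.23 and 1.34 to 5.24, 4.93 and 8.01 RPKM (log2 fold change 1.51, SE 0.17, adjusted p = 4.39e-05), and the boundary gene LSH3 (AT2G31160) from 2.53, 2.87 and 2.38 to 10.2, 9.87 and 8.29 RPKM (log2 fold change 1.54, SE 0.14, adjusted p = 1.5e-05). The boundary gene LSH4 (AT3G23290) rose by 0.54 (adjusted p = 0.0218) and the BELL gene PNY (AT5G02030) by 0.39 (adjusted p = 0.0158). LSH4 lost its call without the second or the third wild-type or the second labelled library (adjusted p = 0.0884, 0.0639 and 0.0898), and PNY without the second wild-type or the first or the third labelled library (adjusted p = 0.073, 0.0522 and 0.0684). The 2 that fell encode receptor kinases of the CLAVATA pathway, which restrains the stem cell pool. CLV1 (AT1G75820) stood at 45.1, 43.7 and 46.2 against 24.0, 22.1 and 40.0 RPKM (log2 fold change -0.68, SE 0.20, adjusted p = 0.0178) and BAM1 (AT5G65700) at 25.9, 26.8 and 26.9 against 20.9, 19.3 and 21.0 RPKM (log2 fold change -0.37, SE 0.10, adjusted p = 0.0147). CLV1 lost its call without the third wild-type, first or second labelled library (adjusted p = 0.0547, 0.0693 and 0.0765), and BAM1 without the second or the third wild-type or the second labelled library (adjusted p = 0.0508 to 0.0555).

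WUS, the organizer gene of the stem cell niche, was under the expression limit and outside the main test. WUS (AT2G17950) stood at 0.0395, 0.0392 and 0 RPKM in wild type and at 0.914, 0.946 and 1.61 in the labelled libraries, and the groups did not overlap. With no filter on low values, an alternative fit over 26043 genes, its log2 fold change was 1.06 (SE 0.17, adjusted p = 0.00102). In that fit 3 further meristem genes under the limit were called higher, named here after their values were seen. They were the stem cell peptide gene CLV3 (0.57, adjusted p = 0.0139), the boundary gene CUC2 (1.23, adjusted p = 3.78e-05) and the BELL gene PNF (0.58, adjusted p = 0.00215). Among tested members not called, BOP1 stood at -0.01, HAM2 at 0.03 and LAS at -0.44 (adjusted p = 0.0818), also named after their values were seen.

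Leaf polarity and organ growth genes moved both ways. In the polarity list 3 of 14 tested genes rose and 1 fell (2 without the first wild-type library), led by ARF3 (AT2G33860), an auxin-linked factor of the lower leaf side, at 5.37, 4.65 and 4.21 against 10.7, 10.3 and 12.9 RPKM (log2 fold change 1.1, SE 0.13, adjusted p = 5.37e-05). YAB3 (AT4G00180), also of the lower side, fell from 31.9, 36.9 and 37.7 to 14.8, 16.3 and 18.8 RPKM (log2 fold change -1.05, SE 0.15, adjusted p = 0.000198). The count of 3 was 1 without the second wild-type or the third labelled library, where PHB and PHV lost their calls, as they also did without the first wild-type library (adjusted p = 0.0539 to 0.0801 for PHB and adjusted p = 0.0634 to 0.0775 for PHV). In the growth list 6 of 15 rose and 2 fell. AIL7 (AT5G65510), an AP2 factor of meristems, stood at 0.456, 0.831 and 0.751 and 4.24, 7.78 and 6.45 RPKM (log2 fold change 2.07, SE 0.20, adjusted p = 1.75e-05), and its relative ANT (AT4G37750), which prolongs cell division in organs, at 3.98, 4.43 and 4.64 and 11.6, 12.4 and 9.86 RPKM (log2 fold change 1.2, SE 0.16, adjusted p = 0.000182). ARGOS (AT3G59900), an auxin-induced promoter of organ size, fell from 83.5, 85.2 and 92.4 to 11.6, 15.6 and 9.23 RPKM (log2 fold change -2.77, SE 0.25, adjusted p = 1.08e-05), and the growth factor gene GRF5 (AT3G13960) from 7.14, 8.95 and 9.93 to 3.24, 3.79 and 1.5 RPKM (log2 fold change -1.37, SE 0.29, adjusted p = 0.00289).

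Genes of mitosis fell more often than they rose, at 10 and 2 of 20 tested and a median of -0.38. CYCB2;3 (AT1G20610), a mitotic cyclin, fell from 5.39, 6.62 and 6.88 to 2.03, 3.02 and 2.68 RPKM (log2 fold change -1.03, SE 0.18, adjusted p = 0.000786), and the mitotic kinase gene CDKB2;2 (AT1G20930) from 6.90, 8.16 and 8.17 to 3.74, 3.29 and 5.01 RPKM (log2 fold change -0.81, SE 0.17, adjusted p = 0.00306). CYCB1;1 (AT4G37490), a cyclin that is also induced by DNA damage, rose instead, from 2.39, 2.19 and 1.96 to 6.23, 4.93 and 6.18 RPKM (log2 fold change 1.09, SE 0.14, adjusted p = 0.000129). The count of rises was 1 without any one mock library, and that of falls was 6 without the second or the third wild-type or the second labelled library. Of 21 listed cytokinin genes 12 were tested and 9 were under the expression limit. Of the 12 tested 6 were higher and none lower by limma (0 at an unadjusted p under 0.05), where 3 were higher without the second or the third wild-type library. AHP4 (AT3G16360), a phosphotransfer protein of cytokinin signalling, had the largest change among them, from 1.21, 0.522 and 0.533 to 15.8, 13.5 and 26.2 RPKM (log2 fold change 3.44, SE 0.26, adjusted p = 4.04e-06). ARR4 (AT1G10470), a cytokinin-induced response regulator, stood at 7.51, 6.81 and 5.46 and 16.3, 11.5 and 10.5 RPKM (log2 fold change 0.84, SE 0.20, adjusted p = 0.00617). With no filter on low values, limma called IPT5 lower (-0.66, adjusted p = 0.0039) and ARR16 higher (0.48, adjusted p = 0.0101) among the 9 cytokinin genes under the limit. Both are named after their values were seen.

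Genes that mark other tissues were examined beside these results. Of the 18 listed seed and embryo genes 2 passed the expression limit, and summed over all 18 their level was 4.23 to 5.81 RPKM in wild type and 6.15 to 10.4 in the labelled libraries. The embryo regulators LEC1, LEC2, FUS3 and ABI3 all had group means under 0.2 RPKM in both labels, and OLEO1 and OLEO2, storage oil proteins, were listed at 0 in all 6 libraries. Floral organ genes summed to 3.11 to 3.52 RPKM in wild type and 12.2 to 15.5 in the labelled libraries, mostly through SEP3 (AT1G24260), at 1.55, 1.85 and 1.18 and 9.40, 9.11 and 11.4 RPKM (log2 fold change 2.12, SE 0.16, adjusted p = 4.04e-06). Trichome genes fell in 4 of 8 tested and rose in none by limma (0 at an unadjusted p under 0.05), and their summed level was 67.6 to 78.2 RPKM in wild type and 54.9 to 56.5 in the labelled libraries. The 4 were GL2, MYB23, CPC (log2 fold change -0.74) and SIM (-0.38). SIM lost its call without any one mock library (limma adjusted p = 0.058 to 0.152). It also lost it with median-ratio scaling or quantile normalization (limma adjusted p = 0.0867 and 0.128), where 3 of 8 fell. The 7 other listed trichome genes were under the expression limit. With no filter on low values TRY was called lower (-0.80, limma adjusted p = 0.000581) and the rest were not called, among them GL1 (-0.07) and GL3 (-0.06). These are named after their values were seen. GL2 (AT1G79840), a homeodomain factor of trichomes and of the root epidermis, fell from 5.68, 5.59 and 6.14 to 0.475, 0.682 and 0.625 RPKM (log2 fold change -2.10, SE 0.18, adjusted p = 7.24e-06), and the MYB gene MYB23 (AT5G40330) from 2.77, 3.21 and 3.19 to 0.667, 0.313 and 0.293 RPKM (log2 fold change -1.52, SE 0.18, adjusted p = 6.11e-05). Their part in the other results was not tested.

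Root genes differed between libraries of 1 label as well. Without PYK10 the 8 other root genes summed to 76.0 to 90.3 RPKM in wild type and to 36.3 to 46.0 in the labelled libraries. CASP1 (AT2G36100), which marks the endodermal barrier, stood at 23.8, 26.1 and 29.4 and 4.33, 4.54 and 0.697 RPKM (log2 fold change -2.89, SE 0.57, adjusted p = 0.00182). PYK10 (AT3G09260), an abundant glucosidase of roots and ER bodies, was higher at 480.1, 403 and 443 and 1231, 888 and 838 RPKM (log2 fold change 1.14, SE 0.16, adjusted p = 0.000255). Of 7 tested root genes 3 fell and 1 rose. SCR (AT3G54220) fell by 0.39 on the log2 scale (limma adjusted p = 0.0117). Its call was lost with median-ratio scaling, quantile normalization or without the third wild-type library (adjusted p = 0.0504, 0.0721 and 0.0626). SHR and WOX5 had log2 fold changes of 0.05 and 0.02 and were not called. With no filter on low values PLT1 was called lower (-0.75, adjusted p = 0.00363) and PLT2 was not called (-0.24). These 4 are named after their values were seen. Root hair genes fell in 3 of 6 tested and rose in none by limma (0 at an unadjusted p under 0.05), and their summed level was 25.9 to 33.2 RPKM in wild type, 18.1 and 25.6 in the first and second labelled library and 1.81 in the third. The count of 3 was 1 without the first or the second wild-type library, 0 without the third wild-type or the third labelled library and 5 without the second labelled one. Whether the amount of root in a library bears on iron, aquaporin or other root genes was not tested.

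The pathway that makes tryptophan, the parent of auxin and of indole defence compounds, held mostly genes that rose. Of 12 tested genes 9 rose (75%) and none fell by limma (0 at an unadjusted p under 0.05), with a median log2 fold change of 1.28. The committed step is catalysed by anthranilate synthase, and its small-subunit gene ASB1 (AT1G25220) stood at 26.7, 27.0 and 25.8 RPKM in wild type and 72.6, 121 and 71.5 in the labelled libraries (log2 fold change 1.66, SE 0.24, adjusted p = 0.000278). The following enzyme gene PAT1 (AT5G17990) went from 17.8, 16.4 and 16.9 to 46.0, 67.8 and 47.1 RPKM (log2 fold change 1.58, SE 0.20, adjusted p = 0.000115), and the last-step subunit TSA1 (AT3G54640) from 73.4, 77.2 and 67.2 to 194, 350.1 and 247 RPKM (log2 fold change 1.81, SE 0.25, adjusted p = 0.000171). The labelled libraries lay above wild type in each, and the second was the highest in 8 of the 9 genes that rose. The others, by falling size, were AT2G04400, ASA1, TSB1, TSB2, PAI3 and PAI1, between 0.45 and 1.45. PAI1 to PAI3 are close copies, whose reads the counting could have split.

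Auxin biosynthesis genes went both ways. NIT2 (AT3G44300), a nitrilase that can turn indole-3-acetonitrile into auxin, stood at 87.5, 80.5 and 60.4 RPKM in wild type and at 769, 956 and 608 in the labelled libraries (log2 fold change 3.33, SE 0.20, adjusted p = 1.03e-06). Its relatives rose too, NIT1 (AT3G44310) from 238, 214 and 223 to 1070.3, 910.3 and 1237 RPKM (log2 fold change 2.24, SE 0.21, adjusted p = 1.54e-05) and NIT4 (AT5G22300), which detoxifies cyanoalanine, from 8.34, 7.45 and 5.48 to 32.8, 54.4 and 36.8 RPKM (log2 fold change 2.37, SE 0.19, adjusted p = 6.01e-06). NIT1 and NIT2 are tandem copies that may share reads. In the YUCCA family, the flavin monooxygenases of the main auxin route, YUC8 (AT4G28720) fell from 12.7, 11.4 and 13.7 to 5.86, 3.28 and 2.28 RPKM (log2 fold change -1.56, SE 0.24, adjusted p = 0.000365). YUC5 (chosen once its values were seen) fell by 1.47 on the log2 scale (adjusted p = 0.000532), and TAA1, which acts before the YUCCA enzymes, was not called at 0.26 (adjusted p = 0.212). In all 4 of 12 tested members rose and 3 fell.

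Lists of auxin response, transport and perception held more falls than rises, except that of GH3 and auxin oxidation genes. Among Aux/IAA genes, which encode repressors that auxin itself induces, 15 of 24 tested fell (62.5%, against 23.5% of all genes) and 1 rose, with a median of -0.71. IAA17 (AT1G04250) stood at 12.2, 12.9 and 12.8 RPKM in wild type and at 2.97, 3.02 and 1.83 in the labelled libraries (log2 fold change -1.94, SE 0.20, adjusted p = 2.78e-05). IAA4 (AT5G43700) fell from 69.0, 85.1 and 76.1 to 30.8, 27.1 and 27.4 RPKM (log2 fold change -1.4, SE 0.14, adjusted p = 2.76e-05) and IAA20 (AT2G46990) from 2.44, 2.88 and 2.68 to 0.11, 0.31 and 0.058 (log2 fold change -1.67, SE 0.33, adjusted p = 0.00187). IAA26 was the one that rose, at 0.77, and it is named after its values were seen. One list joined the GH3 genes, whose enzymes join auxin to amino acids, with genes of auxin oxidation. In it 3 of 8 tested were higher and none lower by limma (0 at an unadjusted p under 0.05). GH3.9 (AT2G47750) went from 0.893, 0.486 and 0.539 to 5.02, 5.49 and 5.82 RPKM (log2 fold change 1.98, SE 0.17, adjusted p = 7.75e-06). Beside it, GH3.2 and DAO1 (AT1G14130), a gene of auxin oxidation and not of the GH3 family, completed the count. Both lost their calls without any one wild-type library or the third labelled one (limma adjusted p = 0.0559 to 0.11 and adjusted p = 0.0637 to 0.0851), which left 1.

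Of 20 tested SAUR genes, small transcripts that auxin raises quickly, 7 fell and 2 rose, led by SAUR1 (AT4G34770) at 43.2, 44.6 and 49.9 against 18.5, 14.5 and 18.9 RPKM (log2 fold change -1.36, SE 0.22, adjusted p = 0.000592). The 7 became 2 to 4 without any one wild-type or the first or second labelled library, and the 2 became 1 without the second or the third wild-type or the first or the third labelled library. The SAUR tandem copies may share reads. Auxin carriers fell in 9 of 17 and rose in 2 (1 without the second or the third wild-type or the third labelled library), with a median of -0.49. PIN7 (AT1G23080), an efflux carrier, stood at 65.6, 69.2 and 82.0 and 32.2, 33.6 and 36.9 RPKM (log2 fold change -1.05, SE 0.15, adjusted p = 0.000278), PIN4 (AT2G01420) at 42.8, 45.1 and 50.9 and 26.2, 23.2 and 25.4 RPKM (log2 fold change -0.86, SE 0.13, adjusted p = 0.000309). The root carrier PIN2 (AT5G57090) fell from 5.22, 4.92 and 5.48 to 1.01, 2.43 and 0.184 RPKM (log2 fold change -1.62, SE 0.38, adjusted p = 0.00493) and was lowest in the third labelled library, like the root hair genes. Among receptors and ARF factors 7 of 17 fell and 1 rose. The receptor genes TIR1 (AT3G62980) and AFB1 (AT4G03190) stood at 34.1, 33.1 and 37.1 against 18.6, 17.6 and 18.1 RPKM (log2 fold change -0.90, SE 0.12, adjusted p = 0.000109) and at 12.4, 11.6 and 12.6 against 4.09, 3.71 and 4.14 RPKM (log2 fold change -1.4, SE 0.15, adjusted p = 2.77e-05). ARF5 (AT1G19850), which drives embryo and vascular patterning, rose from 5.47, 6.15 and 6.77 to 15.8, 21.3 and 15.7 RPKM (log2 fold change 1.37, SE 0.19, adjusted p = 0.000199). Without the third wild-type or the first or the third labelled library the 7 became 4.

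**Figure D2:**
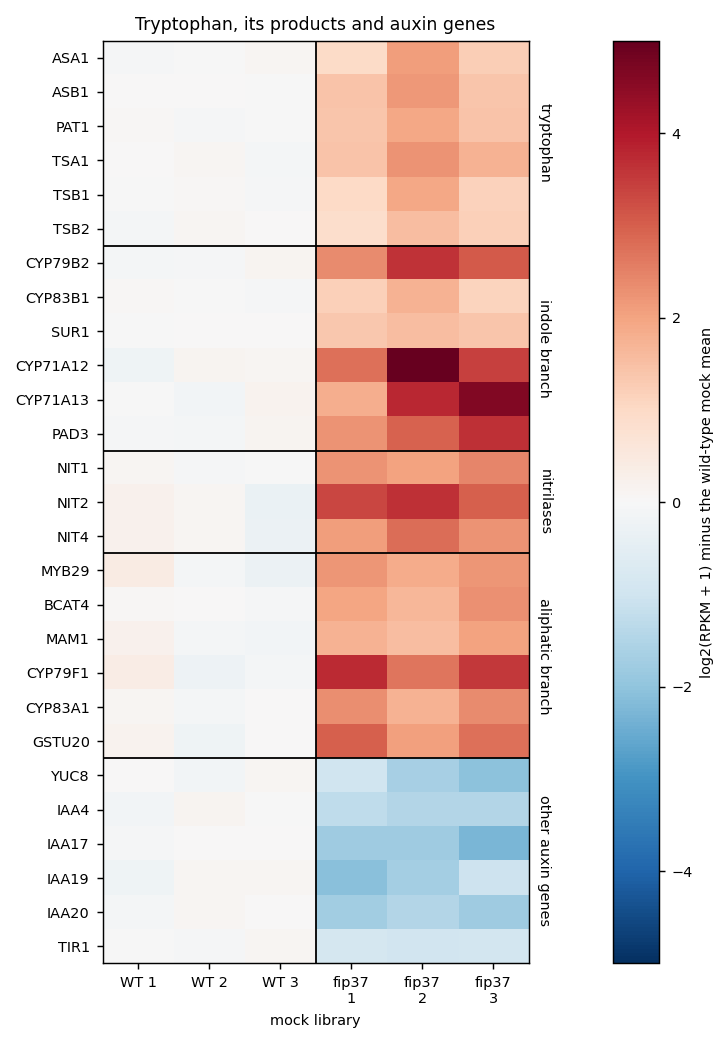
Level of 27 genes in each mock library as log2(RPKM + 1) minus the mean of the 3 wild-type libraries, red above and blue beneath that mean. Tryptophan genes, the indole branch, the nitrilases and the aliphatic branch are red in all 3 labelled libraries (fip37 1 to 3), the other auxin genes blue, and the second labelled library is the reddest for tryptophan and for CYP79B2 and CYP71A12.

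Glucosinolates are sulfur-rich defence compounds of the cabbage family, made in an aliphatic and an indole branch. In the aliphatic branch, which starts from methionine, 14 of 15 tested genes rose (93.3%) and none fell by limma (0 at an unadjusted p under 0.05), with a median of 1.72. CYP79F1 (AT1G16410), which commits elongated methionine to the branch, stood at 2.64, 1.38 and 1.61 RPKM in wild type and 36.3, 17.0 and 31.5 in the labelled libraries (log2 fold change 3.31, SE 0.33, adjusted p = 2.23e-05). CYP83A1 (AT4G13770), the following P450, went from 15.1, 12.8 and 14 to 73.4, 48.2 and 75.5 RPKM (log2 fold change 2.13, SE 0.21, adjusted p = 2.2e-05), and GSTU20 (AT1G78370), a glutathione transferase of the branch, from 18.8, 14.1 and 16.7 to 137, 70.3 and 115 (log2 fold change 2.59, SE 0.33, adjusted p = 0.000112). The regulator gene MYB29 (AT5G07690) rose from 0.854, 0.311 and 0.133 to 5.46, 4.01 and 5.49 RPKM (log2 fold change 2.08, SE 0.25, adjusted p = 7.78e-05). Of the 14 genes that rose 9 were highest in the third labelled library, 4 in the first and 1 in the second. CYP79F1 and CYP79F2 are tandem copies that may share reads.

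In the indole branch, with the phytoalexin camalexin, 11 of 20 tested genes rose and 1 fell (2 without the third wild-type NAA library), with a median of 0.87. CYP79B2 (AT4G39950), which turns tryptophan into the oxime from which indole glucosinolates, camalexin and auxin can be made, stood at 26.7, 27.5 and 31.8 RPKM in wild type and 152, 364 and 249 in the labelled libraries (log2 fold change 3.02, SE 0.53, adjusted p = 0.000915). Its sister gene CYP79B3, named after its values were seen, was not called at 0.47 (adjusted p = 0.290). CYP71A12 (AT2G30750) went from 10.8, 14.1 and 13.8 to 92.8, 467 and 147 RPKM (log2 fold change 3.76, SE 0.58, adjusted p = 0.000397), and PAD3 (AT3G26830), the last enzyme of camalexin, from 9.02, 8.54 and 10.5 to 48.4, 79.5 and 129.9 RPKM (log2 fold change 2.96, SE 0.57, adjusted p = 0.00166). CYP71A13 (AT2G30770) of camalexin synthesis varied between the labelled libraries, at 0.594, 0.492 and 0.823 against 4.80, 21.0 and 39.7 RPKM (log2 fold change 3.41, SE 0.71, adjusted p = 0.00278). Its log2 fold change was 4.2 without the first and 2.79 without the third labelled library, and that of CYP71A12 was 3.09 without the second. The regulator genes MYB34 and MYB51, named after their values were seen, were not called at 0.25 and 0.28.

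Jasmonate genes rose in part. Of 32 tested 13 rose (40.6%) and 2 fell, with a median of 0.74, and the 13 became 8 without the first or second wild-type or the second or the third labelled library. The 2 became 1 without any one wild-type library, the first labelled one or the third labelled NAA library. LOX2 (AT3G45140), a plastid lipoxygenase of jasmonate synthesis, stood at 14.9, 12.7 and 15.3 RPKM in wild type and 289, 242 and 499 in the labelled libraries (log2 fold change 4.43, SE 0.42, adjusted p = 1.56e-05). AOC1 (AT3G25760), a later enzyme of the pathway, went from 38.2, 31.5 and 36.3 to 168, 233 and 276 RPKM (log2 fold change 2.62, SE 0.38, adjusted p = 0.000284). The wound-induced genes TAT3 (AT2G24850) and CORI3 (AT4G23600) reached 23.1, 83 and 28.2 RPKM and 74.7, 102 and 291 RPKM from 1.64, 1.74 and 1.94 and 12.6, 12 and 13.8 (log2 fold change 3.82, adjusted p = 0.00141 and 3.25, adjusted p = 0.000378). The storage protein genes VSP1 and VSP2, named after their values were seen, were not called at 0.32 and 0.75. JAZ5 (1.55) and JAZ10 (1.42) of the JAZ repressor family rose and JAZ1 (0.30) was not called, also named after their values were seen. MYC2, a main activator of the pathway, was listed at 0 in all 6 libraries.

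Salicylate and immune genes rose in 5 of 18 tested and fell in none by limma (1 at an unadjusted p under 0.05), and the 5 became 9 without the third labelled library. SARD1 (AT1G73805), an activator of salicylate synthesis, stood at 2.94, 2.21 and 1.89 and 16.4, 14.3 and 9.20 RPKM (log2 fold change 2.07, SE 0.29, adjusted p = 0.000206), and WAK1 (AT1G21250), a wall-linked kinase, at 9.89, 7.36 and 8.71 and 37.2, 18.5 and 40.7 RPKM (log2 fold change 1.71, SE 0.30, adjusted p = 0.000882). The marker gene PR1, named after its values were seen, shows the spread of the labelled libraries, at 31.4, 106 and 3.55 RPKM against 6.07, 10.2 and 8.31 in wild type, and it was not called (adjusted p = 0.291). Glutathione and glycosyl transferases of stress responses rose in 11 of 19 and fell in none by limma (0 at an unadjusted p under 0.05), with a median of 1.83. GSTU24 (AT1G17170), a transferase of chemical detoxification, stood at 8.09, 11.5 and 9.31 and 69.3, 76.9 and 80.0 RPKM (log2 fold change 2.85, SE 0.33, adjusted p = 5.52e-05), GSTU12 (AT1G69920) at 2.16, 2.00 and 3.37 and 14.7, 28.7 and 26.1 RPKM (log2 fold change 2.75, SE 0.46, adjusted p = 0.000671). GSTU3 (AT2G29470) reached 8.36, 127 and 65.8 RPKM from 2.12, 2.97 and 2.98 (log2 fold change 3.56, SE 0.86, adjusted p = 0.00629), and its log2 fold change was 4.66 without the first and 2.77 without the second labelled library. The rapid stress WRKY genes went both ways at 2 and 2 of 14, where 1 rose without any one wild-type or the second or the third labelled library, 4 without the third wild-type NAA and 5 without the third labelled NAA library. WRKY22 (AT4G01250) fell from 95.5, 84.6 and 67.8 to 20.3, 42.1 and 22.7 RPKM (log2 fold change -1.57, SE 0.30, adjusted p = 0.00161) and WRKY60 (AT2G25000) rose from 5.83, 3.53 and 2.62 to 23.7, 18.6 and 33.7 RPKM (log2 fold change 2.41, SE 0.37, adjusted p = 0.000404). Of 13 heat shock genes 1 rose (2 rose and 2 fell without the third wild-type NAA library), namely HSP18.2 (AT5G59720) from 2.07, 1.4 and 2.12 to 12.1, 11.1 and 14.2 RPKM (log2 fold change 2.24, SE 0.60, adjusted p = 0.0118).

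Most ethylene genes were lower, with 13 of 20 tested lower (65.0%) and 1 higher. The receptor gene ERS2 (AT1G04310) stood at 17.8, 19.2 and 22.2 and 4.64, 6.23 and 3.66 RPKM (log2 fold change -1.84, SE 0.22, adjusted p = 6.74e-05), and ACS11 (AT4G08040), which makes the ethylene precursor, at 4.77, 4.74 and 5.03 and 0.418, 0.505 and 0.85 RPKM (log2 fold change -1.89, SE 0.20, adjusted p = 2.78e-05). ACO1 (AT2G19590), which makes ethylene from it, fell from 7.13, 8.39 and 7.12 to 1.34, 1.85 and 1.97 RPKM (log2 fold change -1.66, SE 0.21, adjusted p = 0.000103). The 13 became 8 without any one wild-type or the first labelled library. Hypoxia genes fell in 5 of 11 and rose in 1 (2 without the first labelled or the second or the third wild-type NAA library), with ADH1 (AT1G77120), alcohol dehydrogenase, at 50.9, 52.2 and 32.0 against 18.7, 15.9 and 21.8 RPKM (log2 fold change -1.2, SE 0.28, adjusted p = 0.0053). Clock genes fell in 5 of 14 and rose in none by limma (1 at an unadjusted p under 0.05). The evening genes LUX (AT3G46640) and TOC1 (AT5G61380) stood at 12.6, 17.0 and 17.1 against 3.62, 4.45 and 3.35 RPKM (log2 fold change -1.78, SE 0.20, adjusted p = 4.76e-05) and at 37.4, 58.3 and 48.9 against 17.9, 21.2 and 17.1 RPKM (log2 fold change -1.30, SE 0.17, adjusted p = 0.00011). The harvest hour was not given in the sources used here.

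Most water channel genes fell. Of 19 tested aquaporin genes 14 fell (73.7%) and 1 rose, with a median of -1.32. TIP2;1 (AT3G16240) and TIP1;1 (AT2G36830) of the vacuole membrane stood at 874, 947 and 963 against 203, 165 and 171 RPKM (log2 fold change -2.37, SE 0.24, adjusted p = 2.44e-05) and at 329, 369 and 409.5 against 86.3, 71.7 and 70.9 RPKM (log2 fold change -2.26, SE 0.22, adjusted p = 1.82e-05). The plasma membrane channel PIP2;5 (AT3G54820) was the exception, at 2.01, 1.5 and 2.04 and 12.6, 9.25 and 16.1 RPKM (log2 fold change 2.23, SE 0.22, adjusted p = 1.93e-05). Xyloglucan enzymes of the XTH family fell in 11 of 20 and rose in 3. XTH22 (AT5G57560), which responds to touch, fell from 441, 555 and 557 to 88.1, 83.6 and 71.8 RPKM (log2 fold change -2.65, SE 0.24, adjusted p = 1.21e-05), and XTH17 (AT1G65310) from 17.9, 19.0 and 23.2 to 1.53, 1.44 and 0.69 RPKM (log2 fold change -3.26, SE 0.34, adjusted p = 2.71e-05). Expansins, which loosen the wall, divided into 5 lower and 2 higher of 11. EXPA11 (AT1G20190) fell from 24.9, 20.9 and 24.4 to 7.73, 3.62 and 4.01 RPKM (log2 fold change -2.05, SE 0.26, adjusted p = 0.000115), and EXPA4 (AT2G39700) rose from 25.2, 25.4 and 25 to 117, 76.9 and 102 RPKM (log2 fold change 1.90, SE 0.15, adjusted p = 4.78e-06).

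Called genes of the iron and the sulfur list went both ways, and iron genes were not called more often than all genes in either direction. FRO2 (AT1G01580), the ferric reductase that works with IRT1, fell from 5.48, 5.89 and 7.44 to 0.152, 0.322 and 0.201 RPKM (log2 fold change -2.56, SE 0.14, adjusted p = 6.43e-07), while NAS1 (AT5G04950), which makes a metal chelator, rose from 4.09, 4.03 and 5.30 to 10.3, 9.15 and 13.8 RPKM (log2 fold change 1.13, SE 0.30, adjusted p = 0.0108). In all 3 of 14 tested iron genes fell (21.4%, against 23.5% of all genes) and 1 rose (7.14%, against 15.3%). The median was -0.10, against -0.07 for all genes. Without the third wild-type NAA library 3 rose. The 12 other listed iron genes were under the expression limit. With no filter on low values limma called CYP82C4 (-1.90, adjusted p = 0.000999), IRT2 (-0.79, adjusted p = 0.00143), BHLH101 (-0.81, adjusted p = 0.0121) and BHLH100 (-0.59, adjusted p = 0.0105) lower. These are named after their values were seen, and the rest of the 12 were not called in that fit. Sulfate transporter genes were divided, with SULTR1;2 (AT1G78000) at 16.7, 20.9 and 20.3 against 8.80, 11.2 and 9.05 RPKM (log2 fold change -0.93, SE 0.17, adjusted p = 0.00126) and SULTR4;2 (AT3G12520) at 1.41, 1.46 and 2.25 against 3.16, 5.19 and 5.84 RPKM (log2 fold change 1.06, SE 0.26, adjusted p = 0.00744). In the sulfur list 4 of 17 rose and 2 fell, and the 4 became 2 without the first wild-type library and 7 without the third wild-type NAA library, whose spread enters the fit, while the 2 became 1 without the first labelled library.

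Many photosynthesis genes of the nucleus rose by small steps. Light harvesting and photosystem genes rose in 18 of 33 tested (54.5%) and fell in 1, with a median of 0.42. PSAH2 (AT1G52230), a subunit of photosystem I, stood at 529, 428 and 430.0 and 1033, 924 and 1249.8 RPKM (log2 fold change 1.2, SE 0.19, adjusted p = 0.000388), and PSBX (AT2G06520) of photosystem II at 947, 842 and 723 and 1719, 1472 and 2025 RPKM (log2 fold change 1.05, SE 0.16, adjusted p = 0.000373). Quantile normalization gave 12 higher and 4 lower in this list. The one that fell, LHCB1.4 (AT2G34430), stood at 1349.8, 1584 and 1345 against 651, 599 and 507 RPKM and lost its call without the second wild-type or the third labelled library (adjusted p = 0.0538 and 0.0528). Rubisco and Calvin cycle genes rose in 10 of 19 and fell in none by limma (0 at an unadjusted p under 0.05), led by RCA (AT2G39730), Rubisco activase, at 1470.4, 961 and 1090.1 and 3454, 2498 and 3329.7 RPKM (log2 fold change 1.41, SE 0.28, adjusted p = 0.00206). The 10 became 6 without the third wild-type or the first labelled library. Of 69 tested plastid genes none was called by limma (1 higher and 2 lower at an unadjusted p under 0.05), with a median of 0.02. Plastid genes together still took a larger share of all RPKM in the labelled libraries (0.552% to 0.706%) than in wild type (0.453% to 0.511%). In the NAA libraries, whose spread enters the fit, that share ran from 0.369% to 4.03%. The lack of calls is thus not evidence that plastid transcripts were unchanged.

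Flavonoid and anthocyanin genes, which make the red pigments, rose in 9 of 13 tested and fell in 2, with a median of 1.09. The late enzyme gene DFR (AT5G42800) stood at 0.616, 0.354 and 0.379 and 5.50, 6.99 and 11.5 RPKM (log2 fold change 2.58, SE 0.30, adjusted p = 5.3e-05), and LDOX (AT4G22880) at 0.282, 0.28 and 0.275 and 3.57, 4.53 and 3.80 RPKM (log2 fold change 1.95, SE 0.18, adjusted p = 1.45e-05). PAP1 (AT1G56650), the MYB activator of the pathway, was near 0 in wild type at 0.0444, 0 and 0.0693 RPKM and reached 2.3, 3.78 and 2.32 (log2 fold change 1.85, SE 0.16, adjusted p = 9.64e-06). Both falls, TT8 at -0.69 and MYB12 at -0.56, named after their values were seen, were calls of regulators, and without the first or the third wild-type library or any one labelled library neither remained. Of 9 tested genes of senescence and carbon starvation 4 fell and none rose by limma (0 at an unadjusted p under 0.05), with a median of 0.02. The list does not hold the senescence marker SAG13, which was among the largest rises (log2 fold change 5.30). Among the falls were DIN1 (AT4G35770), induced by darkness, at 2061, 2667 and 2538 against 529, 527 and 373 RPKM (log2 fold change -2.35, SE 0.23, adjusted p = 2.02e-05) and ASN1 (AT3G47340), asparagine synthetase, at 588, 734 and 708 against 171, 174 and 116 RPKM (log2 fold change -2.15, SE 0.27, adjusted p = 8.7e-05). Wax genes fell in 5 of 11 and rose in 1, with KCS1 (AT1G01120), a fatty acid elongase, at 67.2, 74.9 and 73.0 against 25.6, 19.7 and 15.4 RPKM (log2 fold change -1.80, SE 0.17, adjusted p = 1.43e-05).

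Further hormone and flowering genes gave smaller counts. Of 13 gibberellin genes 4 rose and 4 fell (2 without the third wild-type library), and GA20OX3 (AT5G07200), which makes the active hormone, went from 0.123, 0.183 and 0.191 to 1.89, 1.82 and 4.2 RPKM (log2 fold change 1.58, SE 0.21, adjusted p = 0.000165). The inactivating enzyme genes GA2OX2 (AT1G30040) and GA2OX6 (AT1G02400) moved apart, with log2 fold changes of 1.55 (adjusted p = 0.00066) and -1.28 (adjusted p = 0.00259). Abscisic acid genes rose in 1 (2 without any one wild-type mock or NAA library or the first labelled NAA library) and fell in 2 of 14 (4 without the third wild-type NAA library), with the cold-induced COR47 (AT1G20440) at 522, 615 and 688 against 202, 236 and 209 RPKM (log2 fold change -1.49, SE 0.15, adjusted p = 2.2e-05). Brassinosteroid genes rose in 1 and fell in 2 of 9 (4 likewise), where the related factors BES1 (AT1G19350) and BZR1 (AT1G75080) moved in opposite directions (0.66, adjusted p = 0.000826 and -0.72, adjusted p = 0.00133). Flowering time genes rose in 2 and fell in 2 of 9 (1 without the second or the third wild-type or the first or the third labelled library). The age factor SPL9 (AT2G42200) stood at 0.831, 1.24 and 1.19 against 1.65, 2.48 and 2.35 RPKM (log2 fold change 0.59, SE 0.14, adjusted p = 0.00633). The repressor MAF5 (AT5G65080) stood at 4.22, 3.63 and 3.16 against 1.64, 1.1 and 1.03 RPKM (log2 fold change -1.05, SE 0.19, adjusted p = 0.000928). The 10 other listed flowering genes were under the expression limit. With no filter on low values limma called FLC (-0.72, adjusted p = 0.00492) and CO (-0.73, adjusted p = 0.00661) lower and the rest, FT among them, not at all. These 3 are named after their values were seen.

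**Figure D3:**
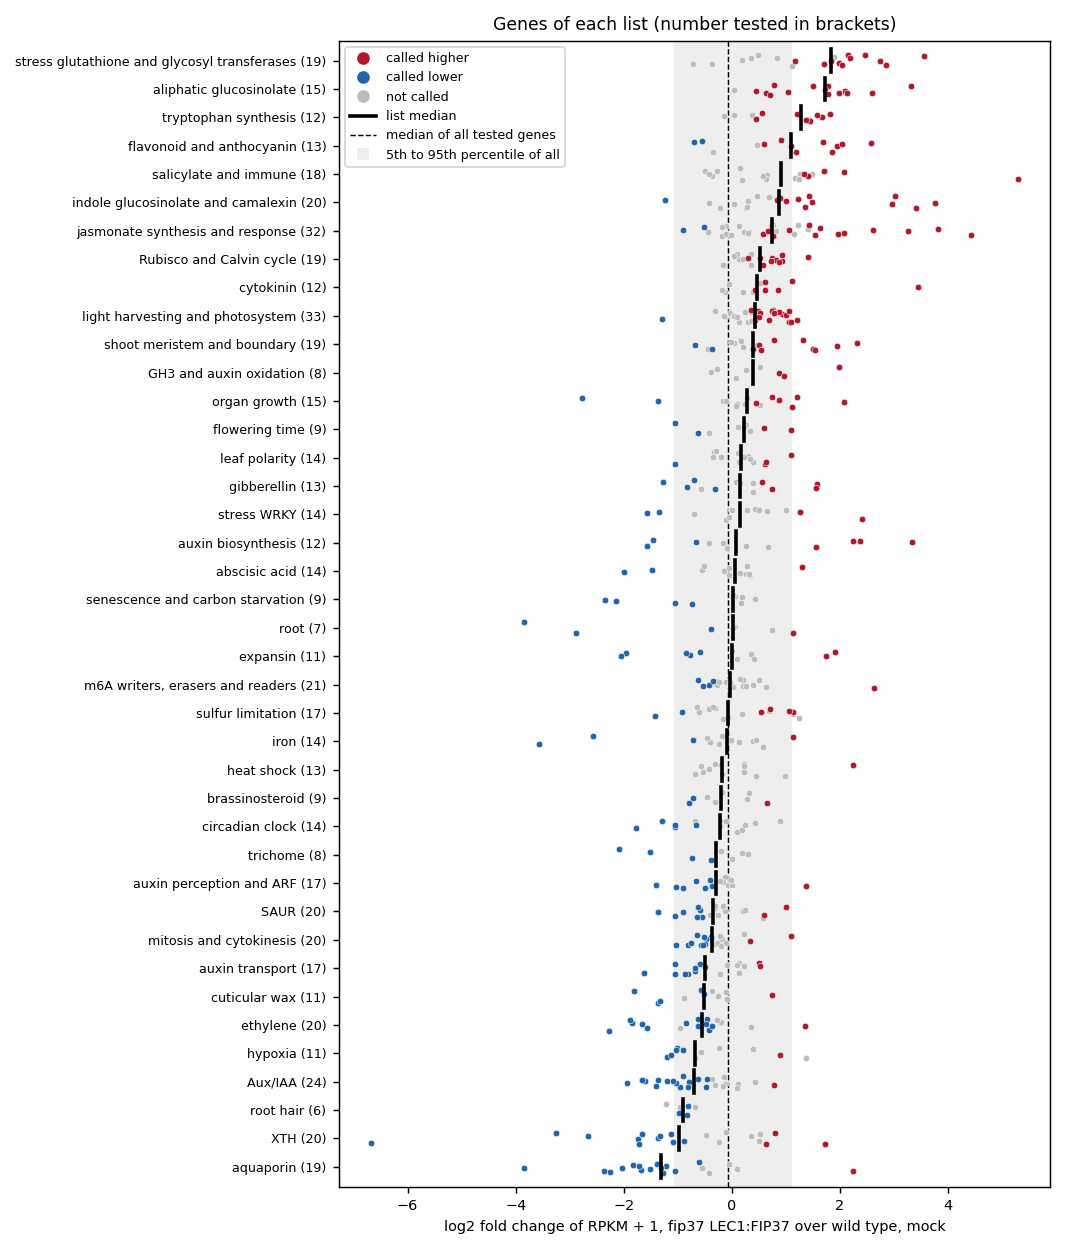
Log2 fold change of each tested gene in 40 lists with at least 5 tested genes, labelled libraries over wild type, sorted by list median (black bar). Red and blue points are genes called higher and lower, the grey band holds the middle 90% of all tested genes and the dashed line is their median of -0.07. Stress transferases (median 1.83) and aliphatic glucosinolate genes (1.72) stand at the top and XTH (-0.99) and aquaporin genes (-1.32) at the bottom.

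Genes of the m6A machinery were not called more often than all genes in either direction. Of 21 tested writers, erasers and readers FIP37 alone rose (4.76%, against 15.3% of all genes) and 4 fell (19.0%, against 23.5%), with a median of -0.03. Median-ratio scaling gave 2 higher and 3 lower with a median of 0.02, and quantile normalization 3 and 3 with 0.03. The fit on the 6 mock libraries gave 4 higher and 4 lower. MTA (AT4G10760), the catalytic methyltransferase, stood at 11.9, 14.6 and 13.6 and 9.65, 11.6 and 11.4 RPKM and was not called (log2 fold change -0.28, SE 0.15, adjusted p = 0.157). FIO1 (AT2G21070), a separate methyltransferase that acts on U6 snRNA, fell from 4.2, 4.39 and 4.08 to 2.59, 2.94 and 2.37 RPKM (log2 fold change -0.53, SE 0.14, adjusted p = 0.0103), and AT5G01160 from 23.8, 24.4 and 24.5 to 16.7, 18.3 and 18.8 RPKM (log2 fold change -0.42, SE 0.09, adjusted p = 0.00401). The reader genes ECT9 (AT1G27960) and ECT1 (AT3G03950) fell by 0.62 and 0.34 on the log2 scale (adjusted p = 0.0315 and 0.0312). ECT1 lost its call without any one mock library (adjusted p = 0.0593 to 0.0989), and ECT9 without any one but the second labelled library (adjusted p = 0.0699 to 0.0975). ECT2, the most abundant reader, was not called at -0.10 and is named after its values were seen. The eraser gene ALKBH10B (0.64) and the reader gene ECT3 (0.39), also named after their values were seen, were not called either. The change of ALKBH10B was as large as that of ECT9, with the opposite sign. Without the third wild-type NAA library 4 genes of the list rose, and 2 fell without any one wild-type or the first or the third labelled library.

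The 6 NAA libraries give the same genotype comparison in other samples, and most calls had the same sign there. In the NAA libraries 7920 genes were called (43.8%), 3466 higher (19.2%) and 4454 lower (24.6%). Of the 2760 genes that rose in mock 2558 had a positive log2 fold change with NAA and 1958 were called higher, which is 70.9% of the mock and 56.5% of the NAA list, while 33 were called lower. Of the 4244 that fell 3988 had a negative one and 2900 were called lower, or 68.3% and 65.1% of the lists, while 28 were called higher. Across the 18072 genes, which are not independent replicates, the fold changes of both comparisons had a Pearson r of 0.78, as a description. CUC1 (2.56), STM (2.48), AHP4 (3.98), CYP79F1 (3.29), NATA1 (5.08) and LOX2 (3.79) had positive log2 fold changes with NAA, each called. IAA17 (-2.51), XTH15 (-3.45) and AT2G01422 (-3.81) were lower with NAA as well, each called. Some lists differed between both comparisons. Stress transferases, with 11 higher and 0 lower in mock (median 1.83), had 1 higher and 9 lower of 19 with NAA (median -1.02), and the test of the difference called 7 of them, against 1.69% of all genes. Mitosis genes, with 2 higher and 10 lower in mock (-0.38), had 6 and 0 of 20 with NAA (0.26), and the difference was called for 2. SAUR genes had 0 higher and 17 lower of 20 with NAA (-1.95), with the difference called for 9, and jasmonate genes 4 and 4 of 32 (0.16), with the difference called for 0. The NAA comparison shares no library with the mock one, though both share the estimate of spread.

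A test of the difference between both comparisons called 306 genes (1.69%), among them 11 of those named by rule. NIT2 had a log2 fold change of 3.33 in mock and 0.95 with NAA (adjusted p of the difference 0.00363), and NIT4 of 2.37 and -0.45 (0.00146). NIT1 had 2.24 and 2.23. IRT1 and FRO2 had -3.57 and -2.56 in mock and -0.59 and -0.31 with NAA (0.0159 and 0.00146). The repressor gene IAA19 was further apart with NAA, at -3.52, than in mock, at -1.61 (0.0155).

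**Figure D4:**
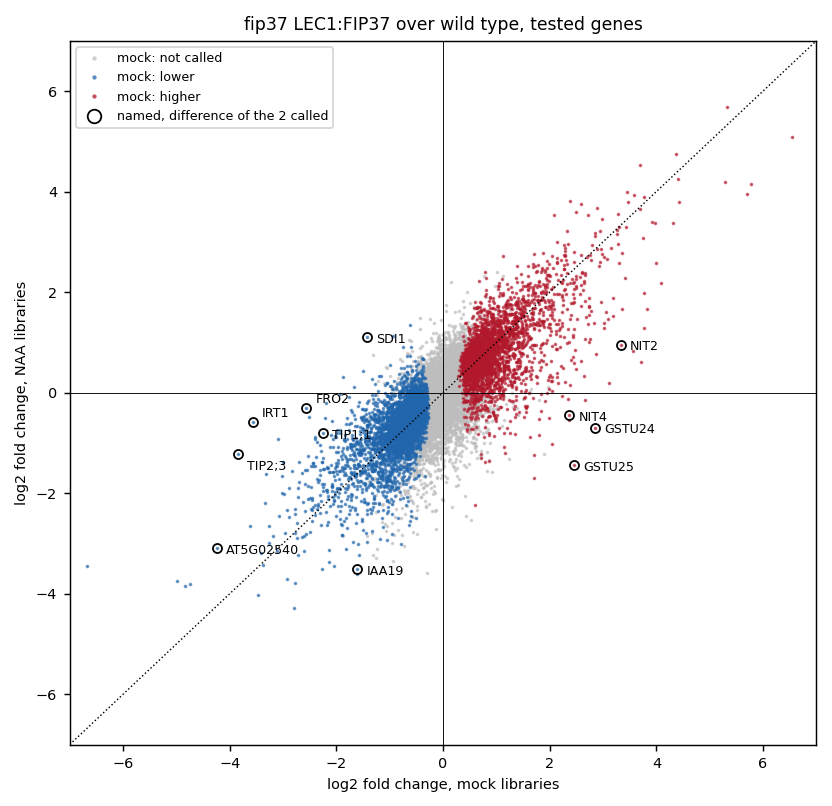
Log2 fold change of the labelled libraries over wild type in the mock (x) and the NAA (y) libraries for 18072 tested genes. Colours show the mock call, circles mark the 11 named genes at which the difference between both was called, and the dotted line marks equal change. Most coloured points lie in the upper right and lower left, and NIT2, NIT4, GSTU24 and GSTU25 lie to the right of the line.

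The m6A peaks of wild-type mock seedlings were set beside the transcript calls, since FIP37 belongs to the m6A writer. The m6A of the labelled line was not analysed here. The authors' lists hold 5867 and 6060 peaks in replicates 1 and 2, of which 4171 were shared (71.1% of the first), and 3676 tested genes (20.3%) held a shared peak. Such genes were fewer among those that rose, at 274 of 2760 (9.93%), and more among those that fell, at 1165 of 4244 (27.5%), with 20.2% of the genes not called. Among falls of at least 2-fold the share was 17.3% (174 of 1007), under that of genes not called, and among such rises it was 6.4% (66 of 1032). Read the other way, 7.45% of genes with a peak rose and 31.7% fell, against 17.3% and 21.4% of genes without one. Falls of at least 2-fold were called for 4.73% of the genes with a peak and 5.79% of those without, and rises of that size for 1.8% and 6.71%. The median log2 fold change was -0.20 with a peak and -0.03 without.

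Detection of a peak depends on the level of the transcript, so the same shares were taken within quintiles of mean RPKM over the 12 libraries. Peaks came from wild type alone, and at an equal mean a gene that rose has a lower wild-type level than one that fell. The quintiles thus do not remove the dependence on level, and the shares within them cannot separate it from a link with m6A. The share with a peak went from 1.16% in the lowest to 35.0% in the highest quintile. In every quintile fewer genes with a peak rose (4.06% to 11.1%, against 15.1% to 20.0% without) and more of them fell (19.0% to 39.0%, against 14.4% to 33.0%), where the lowest quintile held only 42 genes with a peak. At 2-fold the falls were fewer with a peak in the 3 highest quintiles (2.74%, 4.29% and 6.25%, against 4.18%, 6.14% and 9.83%) and more in the 2 lowest (7.14% and 5.25%, against 5.12% and 4.71%). Genes are not replicates, and these shares carry no test. None of the 19 tested meristem genes held a shared peak, nor did any tested aquaporin, XTH or SAUR gene, while 6 of the 21 genes of the m6A machinery did. STM, whose transcripts rose, is among the genes with no shared peak. The lowest quintile, in which 1.16% held a peak, reached up to a mean of 3.27 RPKM. Wild-type levels of CUC1, ATH1 and LSH3, given with the meristem genes, were under that bound, and that of STM was close to it. For these genes the lack of a peak cannot be told from a lack of detection.

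Of the 12 largest rises and the 12 largest falls LOX2, AT1G12080 and COR27 held a shared peak, with coordinates on TAIR10 and the authors' fold enrichment over input. LOX2 held one at chr3:16528716-16529239, with 1.73-fold and 1.62-fold enrichment in replicates 1 and 2. AT1G12080 held one at chr1:4084722-4084929 (1.23-fold and 1.45-fold) and COR27 one at chr5:17198168-17198757 (1.72-fold and 1.93-fold). Among named genes with smaller changes, a peak in ERS2 lay at chr1:1154919-1155130 (2.26-fold and 2.07-fold). PIN7 held one at chr1:8180475-8180696 (2.69-fold and 2.09-fold), ASB1 at chr1:8837303-8837634 (1.43-fold and 1.70-fold) and TOC1 at chr5:24677857-24678160 (1.44-fold and 1.37-fold). Of the genes given with coordinates LOX2 and ASB1 rose and the other 5 fell, but these are not all named genes with a shared peak. WAK1, EDS5, WRKY75 and FBA2, called higher in the main fit, also held one. So did ECT1, AHA2 and BZR1, called lower, and MTA, not called. Both directions thus occurred among them.

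**Figure D5:**
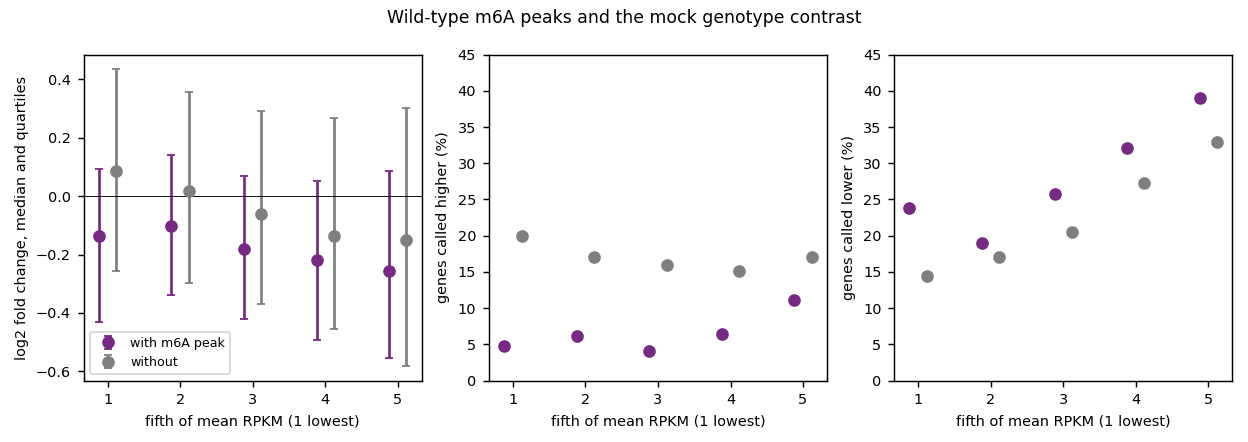
Tested genes with (purple) and without (grey) a shared m6A peak in wild-type mock seedlings, by quintile of mean RPKM over 12 libraries. Panels give the median and quartiles of the log2 fold change, the share called higher and the share called lower. In all quintiles fewer genes with a peak were called higher and more were called lower, at any size of change, than genes without one.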

How the data were processed

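Polyadenylated RNA of whole seedlings was sequenced from strand-specific single-end libraries, and the authors deposited 1 RPKM value per gene and library, per the file headers. Reads were aligned to TAIR10 with STAR 2.5.3a, per the submitters' processing notes; the read counting tool and the read totals were not given in the sources used here, so values carry no counting interval. Every expression column was assigned to a sample (0 columns not assigned). Peaks were called per replicate with MACS 2.2.6 against the input, and the deposited lists give a fold enrichment (a ratio) and a −log10 q per peak, per the file headers. The score column of the authors' deposited 35S:FIP37 peak list served only to check gene coordinates. The other peak lists were not used here.

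From these, log2(RPKM + 1) of the 12 libraries in 4 groups of 3 was fitted with limma 3.58.1 (trended variance, R 4.3.3), and the genotype contrasts and their difference were adjusted by Benjamini-Hochberg over 18072 genes at 0.05. Fold changes are on the log2(RPKM + 1) scale, which understates those of low genes. An exact 0 may be a failed estimate, as 8219 genes are listed at 0 in all 12 libraries. A peak counted as shared if it overlapped one of the other replicate by at least 50% of the shorter. No replicate pair was a duplicate. Symbols came from RefSeq names (TAIR10.1), which matched 32548 IDs. Python 3.11.15 with pandas 2.3.3, NumPy 2.4.6 and matplotlib 3.10.9 did the rest, and the fit was tested on simulated data.

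The genes, lists and tests were chosen with earlier results of these data known, so counts over the lists carry no test. Genes named are FIP37, the 12 largest rises and falls among called genes with groups that do not overlap, up to 4 called genes of each list by size of change, every called gene of the m6A and meristem lists, and WUS, STM and MTA. Alternatives changed the pseudocount (0.1), the filter (none, or a mean of 5 RPKM), the scaling (median ratios, quantiles), the libraries fitted, array weights, a replicate block, each library left out and the peak rules.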

Additional observations from a re-analysis of the deposited data

Results flagged for a closer look

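At 11 named genes the genotype difference itself differed between the mock and the NAA libraries (limma interaction, Benjamini-Hochberg over all tested genes). The value given first is the NAA minus the mock log2 fold change, followed by both. Among genes that fell in mock, the difference was 2.98 for IRT1 (-3.57 in mock, -0.59 with NAA, adjusted p = 0.0159) and 2.26 for FRO2 (-2.56 and -0.31, adjusted p = 0.00146), both of root iron uptake. It was 2.64 for the vacuolar channel gene TIP2;3 (-3.85 and -1.21, adjusted p = 0.00339) and 1.45 for TIP1;1 (-2.26 and -0.81, adjusted p = 0.0399). For the sulfur-starvation gene SDI1 it was 2.53 with opposite signs (-1.43 and 1.1, adjusted p = 0.0418), and for AT5G02540 it was 1.14 (-4.24 and -3.09, adjusted p = 0.0317). IAA19 fell further with NAA, with a difference of -1.91 (-1.61 and -3.52, adjusted p = 0.0155). Among genes that rose in mock, the nitrilase genes NIT2 and NIT4 gave -2.38 (3.33 and 0.95, adjusted p = 0.00363) and -2.82 (2.37 and -0.45, adjusted p = 0.00146). The glutathione transferase genes GSTU24 and GSTU25 gave -3.55 (2.85 and -0.70, adjusted p = 0.00584) and -3.90 (2.46 and -1.44, adjusted p = 0.0184). The third wild-type NAA library lay at least 2-fold from the other two of its group at 1711 tested genes, and its part in these differences was not tested.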

How the results depend on the processing

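None of the 183 tested genes named by rule reversed under the 20 alternatives of the fit, and the list medians near 0 that changed sign with median-ratio scaling included those of m6A genes (0.02) and expansins (0.06). Of the 182 of them that were called, 33 lost their call when some library was left out, 13 under some other setting. Leaving out 1 library at a time gave 5189 to 8860 called genes, 2048 to 3645 higher and 3103 to 5215 lower, and 1877 to 2107 called with at least 2-fold change, 949 to 1092 higher and 893 to 1049 lower. A mean of at least 5 RPKM, which tests fewer genes, gave 1737 higher, 1349 called at 2-fold and 622 of those higher. Array weights gave 4146 higher, and the cause was not tested. The genes called with a shared m6A peak, 1439 in all, became 831 with −log10 q of at least 5 and 2448 with a peak in either replicate, by construction. Replicate numbers are shared by the groups, but same-numbered libraries deviated together with r of only 0.06, 0.02 and 0.05, so the numbers were not taken as pairs, although each library correlated best with its own number; the replicate block gave 6810 called genes, 2696 higher and 4114 lower. Depth and 3 libraries a group limit what can be said of genes under 1 RPKM.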

Other observations

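Transcripts that do not code for protein were spread differently from coding ones. Of 142 tested long non-coding RNAs 33 were called higher (23.2%) and 13 lower (9.15%), with a median log2 fold change of 0.22. Of 82 other non-coding RNAs 23 were higher (28.0%) and 7 lower (8.54%). Among 17728 protein-coding genes 15.2% were higher and 23.8% lower, with a median of -0.08. The types were not matched for level. Of genes without an m6A peak 20.0% were higher and 14.4% lower in the lowest quintile of mean RPKM. In the highest quintile these shares were 17.1% and 33.0%. Whether level bears on the difference between types was not tested. Strand-specific libraries were used per the labels, but the strand setting of the counting was not given in the sources used here, so reads of overlapping genes may not be told apart.

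Of the 8 tested genes nearest to FIP37 in gene order, chosen after their values were seen, 3 were called, a share close to the 38.8% of all tested genes. AT3G54150 stood at a mean of 9.26 RPKM in wild type and 39.0 in the labelled libraries (log2 fold change 1.93, limma adjusted p = 0.000106), and AT3G54200 at 47.4 and 17.4 RPKM (-1.4, adjusted p = 2.71e-05). The adjacent CDKB1;1 stood at 2.97 and 3.99 RPKM (0.33, adjusted p = 0.0476), and the 5 others were not called, with log2 fold changes between -0.30 and 0.34. Of 26 tested mitochondrial genes none was called by limma (1 higher and 0 lower at an unadjusted p under 0.05), with a median log2 fold change of 0.29. Mitochondrial genes together took 0.0296% to 0.0364% of all RPKM in wild type and 0.0498% to 0.0711% in the labelled libraries. In the NAA libraries, whose spread enters the fit, that share ran from 0.038% to 0.207%.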
